A study of Homo sapiens with 8 samples.

Results

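Zinc finger transcription factor genes were taken as all listed genes whose symbol starts with ZNF or ZFP and a digit, or with ZSCAN or ZKSCAN. There were 84 of them among the 2998 genes of the 3 deposited tables, 81 of 2885 with brazilin, 3 of 193 with acetylated brazilin and 0 of 11 with methylated brazilin. RNA was sequenced from MDA-MB-231, an established human cell line of triple-negative breast cancer. The 8 samples formed 4 groups of 2, which were untreated cells cultured for 48 h and cells given 20 µM of unmodified, methylated or acetylated brazilin from seeding, renewed daily, for 48 h. Brazilin is the phenolic compound of sappanwood, and the labels do not say whether solvent was added to the untreated cells. Each table sets 1 compound against the same untreated group and lists the genes that the authors called, at a q-value under 0.05 and an absolute log2 fold change of at least 0.5 as the values show.

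Most of these genes encode proteins that bind DNA through rows of C2H2 fingers, short loops in which a pair of cysteines and a pair of histidines hold a zinc ion. Many also carry a KRAB domain, which recruits the co-repressor TRIM28 and, through it, enzymes and readers of silent chromatin, and a smaller set carries a SCAN domain, through which such proteins pair with each other. KRAB zinc finger genes arose by repeated duplication, lie in large part in clusters on chromosome 19, and are known for silencing transposable elements, although the targets of many are not known.

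The tables give the authors' mean FPKM (fragments per kilobase of transcript, scaled to library size, so a level per length) in each group with the log2 fold change and its q-value, and no value per sample, so the spread between the 2 samples of a group and the sequencing depth cannot be seen. The labels name no separate cultures within a group, and the q-values then cover only the spread between samples that may be technical repeats. All levels, fold changes and q-values of single genes below were copied from the authors' deposited table of the respective compound. Intervals are 95% intervals with an error computed from the q-value, and they are too wide rather than too narrow provided that the authors ran a Wald test without shrinkage. The labelled cell line could not be checked against its markers, since only called genes are listed.

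With brazilin 42 of the 81 zinc finger genes were higher than in untreated cells and 39 were lower, where 47.6% of all 2885 listed genes were higher and 52.4% lower. The share that rose was thus 51.9%, against 47.5% of the 2804 other listed genes. They were listed about as often as other genes, since 81 of 566 protein-coding RefSeq genes with such symbols (14.3%) stood in the table, against 14.3% of all 20056 protein-coding genes, and unlisted genes include those that the cells may not express. The changes were small. By the authors' fold change 9 of 81 were at least 2-fold higher (11.1%), against 18.5% of all listed genes. At least 2-fold lower were 2 of 81 (2.47%), against 9.6%. The median absolute log2 fold change was 0.66 in zinc finger genes and 0.73 in the other listed genes. The signed median, 0.50 against -0.52, says little, because no listed value lies between -0.5 and 0.5 and the median moves across that gap with a few genes. Levels ranged from 0.01 to 50.96 FPKM in untreated cells, with a median of 3.29 FPKM, against 6.26 FPKM in the other listed genes.

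**Figure D1:**
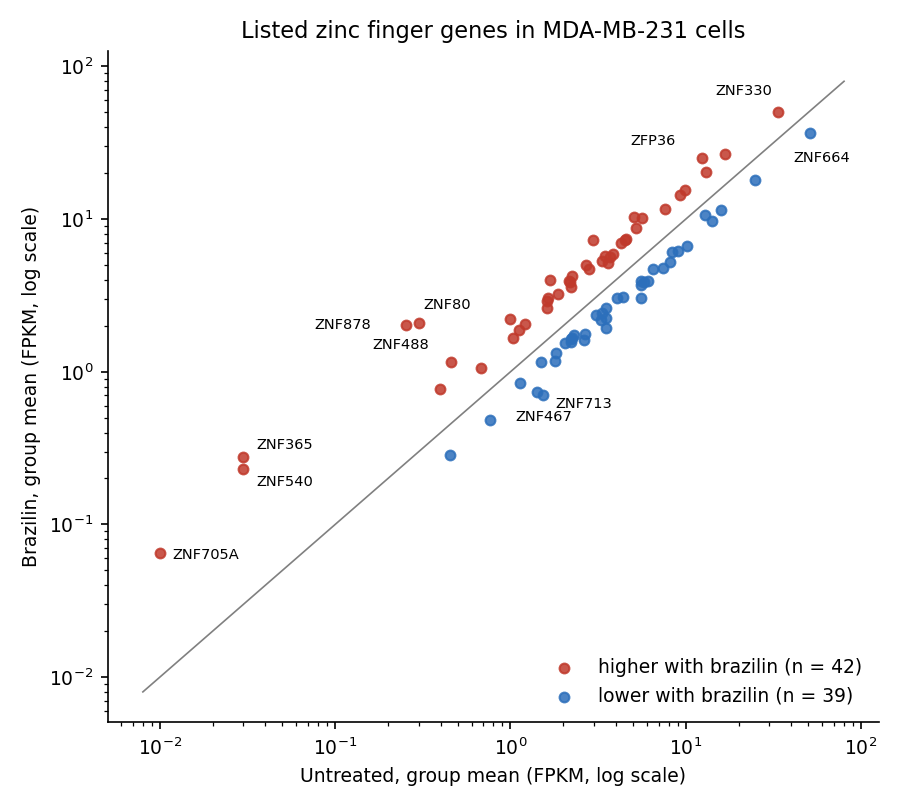
Group mean level of each of the 81 zinc finger genes in untreated cells (x axis, FPKM, log scale) and with brazilin (y axis, FPKM, log scale), red where higher and blue where lower, with the grey line at equal levels. Most points lie close to the line, and the points farthest above it, ZNF705A, ZNF540, ZNF365, ZNF878 and ZNF80, were under 1 FPKM in untreated cells.

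The largest rises among genes that reached 1 FPKM were those of ZNF878 and ZNF80. ZNF878, a KRAB gene with 14 fingers, had 0.255 FPKM without and 2.04 FPKM with brazilin, a 7.05-fold rise (log2 2.82, interval 2.01 to 3.63, q = 1.01e-11). ZNF80, a gene with 5 fingers and no KRAB match, went from 0.30 to 2.09 FPKM, a 6.62-fold rise (log2 2.73, interval 2.13 to 3.32, q = 3.36e-19). With brazilin both were still below the median of the 81 genes, 3.62 FPKM. The other large rises were about 2-fold. ZNF488, known in mouse for oligodendrocyte differentiation, rose from 0.46 to 1.17 FPKM (log2 1.29, with an interval of 0.69 to 1.89), and ZNF296, whose mouse counterpart is known from embryonic stem cells, from 2.97 to 7.36 FPKM (log2 1.22, interval 0.86 to 1.58). The KRAB genes ZNF441 and ZNF30 rose from 1.68 to 3.98 FPKM (log2 1.15, with an interval of 0.87 to 1.44), and from 0.995 to 2.21 FPKM (log2 1.06, interval 0.56 to 1.55). ZNF503, a repressor of the NET family, rose from 1.64 to 3.05 FPKM (log2 0.80). The span of ZNF878 overlaps the antisense gene ZNF433-AS1 in the RefSeq table and that of ZNF30 overlaps ZNF30-AS1, and whether the counting used strand was not given in the sources used here.

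Rises of ZNF705A, ZNF540 and ZNF365, named after their values were seen, had log2 values of 5.21, 2.99 and 2.45 and rest on very low levels. ZNF705A had 0.01 FPKM without brazilin, which no listed value undercuts, and 0.065 FPKM with it, and it shares 98.3% of its coding sequence with ZNF705D, the closest copy of any zinc finger gene of this table. ZNF540 stood at 0.03 and 0.23 FPKM and ZNF365 at 0.03 and 0.275 FPKM. None of the 3 reached 1 FPKM, and their intervals spanned over 3 log2 units. They were 0.77 to 9.65 for ZNF705A, 1.06 to 4.92 for ZNF540 and 0.80 to 4.09 for ZNF365. By the ratio of group means the log2 values were 2.70 for ZNF705A, 2.94 for ZNF540 and 3.20 for ZNF365.

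The falls were more even in size. ZNF713, a KRAB gene known for an expandable CGG repeat, fell from 1.53 to 0.70 FPKM (log2 -1.22, interval -1.66 to -0.77, q = 8.21e-08), and ZNF467, whose mouse counterpart acts in the choice between bone and fat cells, from 1.41 to 0.74 FPKM (log2 -1.06, interval -1.66 to -0.46, q = 0.000559). These were the only falls of at least 2-fold. ZNF362 fell from 5.55 to 3.03 FPKM (log2 -0.96, with an interval of -1.22 to -0.69), and ZNF652, a repressor that works with ETO family co-repressors, from 3.50 to 1.95 FPKM (log2 -0.93, interval -1.11 to -0.74). ZNF737, ZNF704, ZNF69 and ZNF605 fell by 0.75 to 0.79 on the log2 scale, from 2.62 to 5.59 FPKM in untreated cells. None of the 39 falls ended at the lowest listed value, and the lowest level with brazilin among them was 0.285 FPKM.

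**Figure D2:**
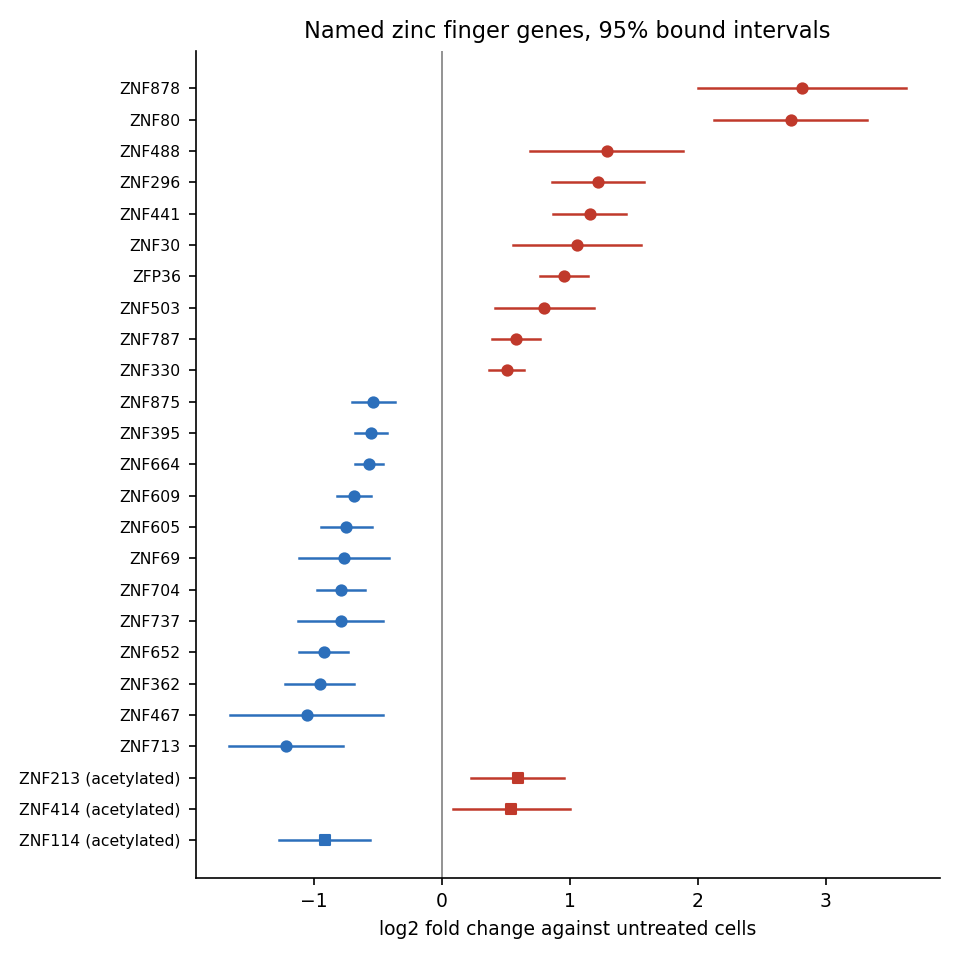
log2 fold change against untreated cells (x axis) of the 22 named zinc finger genes with brazilin (circles) and the 3 with acetylated brazilin (squares, labelled), red where higher and blue where lower, with 95% intervals derived from the q-value. ZNF878 and ZNF80 stand apart at 2.82 and 2.73, and the falls lie between -1.22 and -0.54 for brazilin.

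The most abundant zinc finger genes went both ways by about 1.5-fold. ZNF664, at 50.96 FPKM in untreated cells the most abundant, fell to 36.57 FPKM (log2 -0.57, interval -0.68 to -0.46, q = 6.21e-25, the smallest of all 81). ZNF395, a hypoxia-induced regulator, fell from 24.78 to 18.01 FPKM (log2 -0.55) and the KRAB gene ZNF875 from 15.81 to 11.57 FPKM (log2 -0.54). ZNF787 rose from 16.69 to 26.54 FPKM (log2 0.58, interval 0.39 to 0.77). ZNF609, which also gives rise to a circular RNA, fell from 10.11 to 6.71 FPKM (log2 -0.69, interval -0.82 to -0.55). Whether linear or circular RNA was counted cannot be told apart from these values.

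Not every gene with such a symbol encodes a C2H2 transcription factor. In 6 of the 81 no C2H2 finger was found in the translated coding sequence, and 5 of these rose. ZFP36, which encodes tristetraprolin, an RNA-binding protein with CCCH fingers that marks mRNAs with AU-rich elements for decay, rose from 12.3 to 25.3 FPKM (log2 0.95, interval 0.76 to 1.14, q = 5.31e-23). ZNF330, a nucleolar protein gene, rose from 33.49 to 50.66 FPKM (log2 0.51, interval 0.37 to 0.64). ZNF503, ZNF365 and ZNF816-ZNF321P, a readthrough gene whose reads may belong to ZNF816, were the other higher genes, and ZNF862, at 4.08 and 3.06 FPKM, was the lower one. Without these 6 genes 37 rose and 38 fell, so 49.3% were higher. ZNF473, a gene with 18 fingers named after its values were seen, encodes a protein of the machinery that processes replication-dependent histone mRNAs, and it rose from 9.26 to 14.4 FPKM (log2 0.54, interval 0.39 to 0.70).

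Rises and falls were about equally frequent in each class of motif match. A KRAB match was found in 43 of the 81, of which 22 rose and 21 fell, and a SCAN match in 4, of which 2 rose and 2 fell. Of the 34 with neither match, 18 rose and 16 fell. Both listed genes with SCAN in their symbol fell, ZSCAN30 from 5.54 to 3.91 FPKM and ZKSCAN1 from 12.9 to 10.7 FPKM, while ZNF394 and ZNF18, also with a SCAN match, rose from 13.1 to 20.4 FPKM and from 1.12 to 1.87 FPKM. Genes with a KRAB match were listed about as often as the others, in 13.8% of 312 RefSeq genes against 16.4% of 207 with neither match. By number of fingers, 12 of 23 genes with 5 to 9, 14 of 29 with 10 to 14 and 8 of 17 with 15 or more rose. The motif search misses diverged domains, since 7 of 28 RefSeq genes with SCAN in their symbol had no match. KRAB was searched only near the start of each protein, so a KRAB domain that lies behind a SCAN domain can be missed. ZKSCAN1, despite its symbol, had no KRAB match. Genes without a match may therefore still carry the domain, and how many do was not tested.

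Of 25 genes for TRIM28, the partner of KRAB proteins, and the silencing factors it works with, 2 were in the brazilin table, where 14.3% of all protein-coding genes stood. These were ATRX and CBX5, and both fell. ATRX, a remodeller that places histone H3.3 in silent chromatin, fell from 12.63 to 6.33 FPKM (log2 -1.15, interval -1.29 to -1.01, q = 2.69e-61), and CBX5, which encodes the heterochromatin protein HP1 alpha, from 22.97 to 11.94 FPKM (log2 -1.04, interval -1.15 to -0.93, q = 5.85e-76). Among the lower zinc finger genes ZNF713 and ZNF467 alone had falls as large as that of CBX5. With acetylated brazilin ATRX was also lower, at 8.49 FPKM (log2 -0.56, interval -0.68 to -0.44). The tables share their untreated samples. TRIM28 and SETDB1 were not listed with any compound, which says only that they missed the authors' criteria.

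Zinc finger genes with low levels in untreated cells mostly rose and those with high levels were lower more often, and classes of the untreated level gave the same order among other listed genes. Under 1 FPKM 9 of 11 rose (81.8%, against 82.2% of 562 other listed genes). From 1 to under 3 FPKM 15 of 28 rose (53.6% against 49.1%), from 3 to under 10 FPKM 14 of 32 (43.8% against 37.1%), and at 10 FPKM or more 4 of 10 (40% against 36%). The untreated level is also the base of the fold change, which by itself ties low levels to rises. By the mean of both groups there was no steady order. Under 1 FPKM 6 of 9 rose (66.7% against 73.1% of other listed genes), from 1 to under 3 FPKM 12 of 29 (41.4% against 51.2%), from 3 to under 10 FPKM 18 of 32 (56.3% against 36.3%), and at 10 FPKM or more 6 of 11 (54.5% against 42.3%). By the authors' fold change 0 of 42 zinc finger genes at 3 FPKM or more in untreated cells changed at least 2-fold. Among other listed genes at that level 228 of 1820 did (12.5%). By the ratio of group means ZFP36 (log2 1.04) and ZNF789 (log2 1.02) passed 2-fold, where the authors' log2 fold changes were 0.95 and 0.70.

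Falling zinc finger genes had longer transcripts at the median than rising ones, and the ranges overlapped (1954 to 14386 and 1252 to 10414 bases). The median length was 2543 bases in the 42 higher genes and 4517 bases in the 39 lower genes, and coding sequences were alike (medians of 1677 and 1704 bases), so that the gap lay in the untranslated part. The 3′ UTR had a median of 683 bases in higher and 2317 bases in lower genes. These lengths are those of 1 annotated transcript per gene, and which transcripts the cells made is not known. ZNF878, ZNF365 and ZNF587B, which all rose, had an annotated 3′ UTR of 0 bases and count as under 1 kb. With a 3′ UTR under 1 kb 28 of 39 rose (71.8%), from 1 to under 2 kb 5 of 10, and at 2 kb or more 9 of 32 (28.1%). Other listed genes had the same order, with 58.7%, 47.9% and 27.6% higher. In 5 equal classes of transcript length, from shortest to longest, 4 of 4, 18 of 23, 11 of 18, 6 of 19 and 3 of 17 zinc finger genes rose, and 68.8%, 61.6%, 49.0%, 35.7% and 21.8% of the other listed genes.

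**Figure D3:**
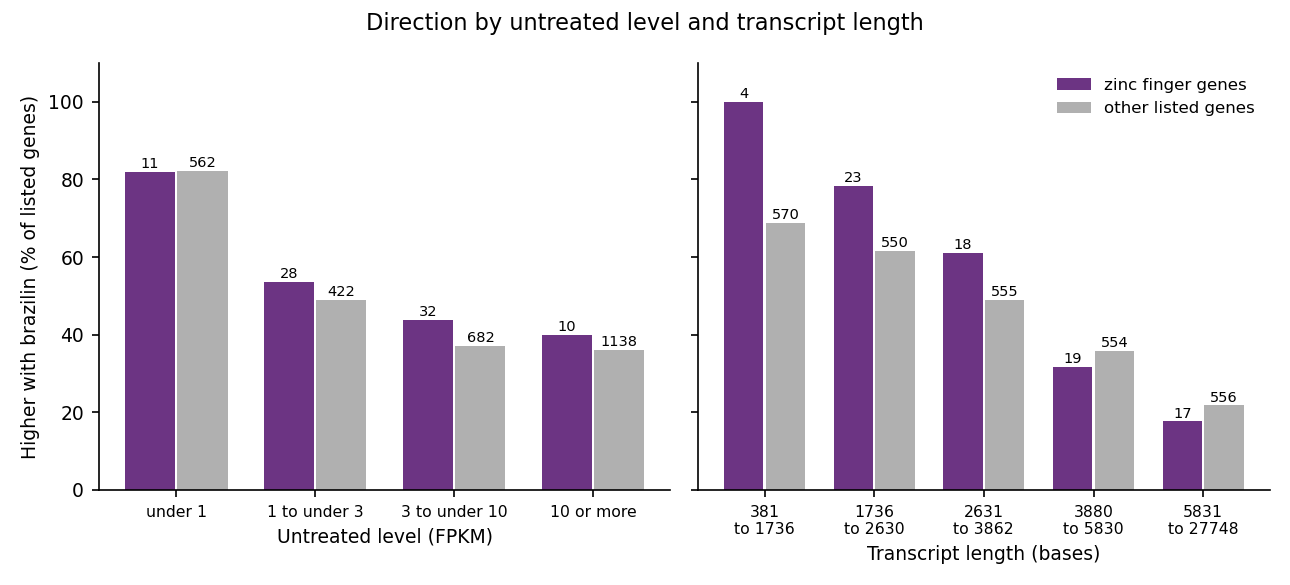
Percentage of listed genes higher with brazilin (y axis) among zinc finger genes (purple) and other listed genes (grey), by untreated level in FPKM (left) and by transcript length in bases (right), with the number of genes above each bar. Both sets decline from 81.8% and 82.2% under 1 FPKM to 40% and 36% at 10 FPKM or more, and from the shortest to the longest transcripts.

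**Figure D4:**
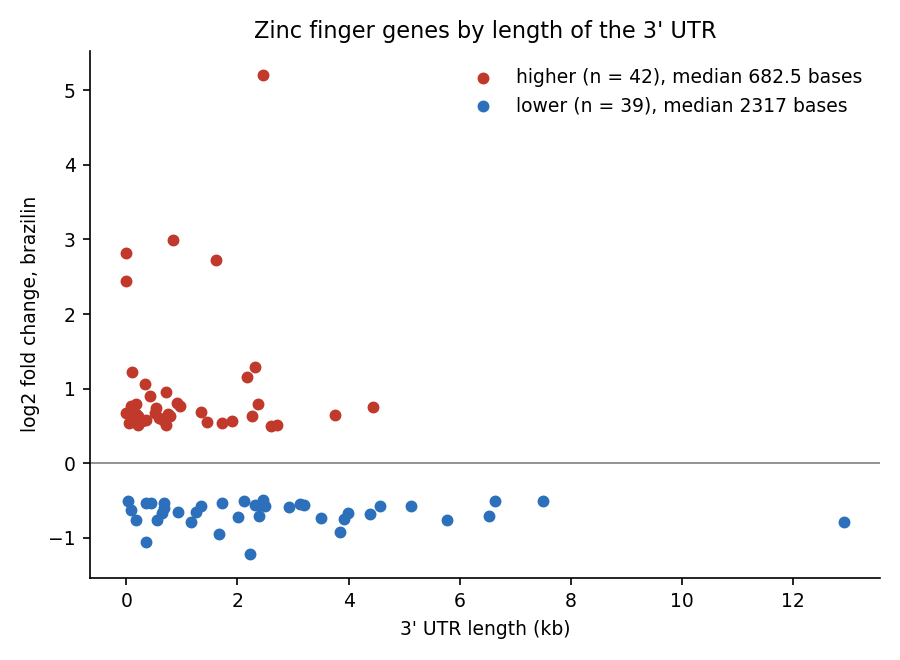
log2 fold change with brazilin (y axis) of each of the 81 zinc finger genes by the annotated length of its 3′ UTR in kb (x axis), red where higher and blue where lower. Lower genes reach farther to the right, with a median of 2317 bases against 683 bases in higher genes, and the ranges overlap.

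Zinc finger transcripts are poor in G and C, and set against transcripts of like composition the gap to other listed genes was wider in most classes. Their median GC content was 44.7%, against 50.3% in the other listed genes, of which 55.2% was the median in higher and 45.7% in lower genes. In the lowest of 5 GC classes 8 of 24 zinc finger genes rose (33.3%) against 20.9% of the other genes, in the next 15 of 28 (53.6%) against 33.9%, and in the middle class 9 of 14 (64.3%) against 47.0%. In the upper classes, with 5 and 10 zinc finger genes, the shares were 40% against 60% and 80% against 74.2%. Other listed genes weighted to the GC classes of the zinc finger genes gave 38.9% higher, against 51.9% in the zinc finger genes, and weighted to their length classes 44.7%. These comparisons are descriptions, since the tables allow no test over samples, and that on GC content was added after the data were seen.

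On chromosome 19, 39 of 262 protein-coding zinc finger genes were listed (14.9%), and 23 of the 39 rose (59.0%), against 19 of 42 on other chromosomes (45.2%). Of all listed genes 47.6% were higher, and the share among the other listed genes of chromosome 19 was not computed. In all, 3 neighbourhoods held 6 or more listed genes whose starts lay within 500 kb of the next. The largest, chr19:11767000-12441021 (GRCh38.p14), held 9 listed genes, all with a KRAB match, among 18 genes with such symbols. The neighbourhoods were picked for their listed genes and end at listed genes, so the share listed within them is raised by that choice. Over all protein-coding genes 14.3% were listed. In order along the chromosome ZNF441 rose, ZNF439 and ZNF69 fell, ZNF433, ZNF878, ZNF844, ZNF44 and ZNF442 rose and ZNF443 fell. ZNF439 and ZNF69 were at 5.80 and 5.59 FPKM in untreated cells and at 3.86 and 3.69 FPKM with brazilin, while ZNF844, at a like 5.66 FPKM, rose to 10.2 FPKM and ZNF44 from 4.29 to 7.02 FPKM. In chr19:57279982-58003346, 6 of 30 genes with such symbols were listed. Of these 5 rose, by 0.63 (ZNF586) to 0.80 (ZNF551) on the log2 scale, and ZNF606 fell (log2 -0.65). In chr19:52113091-52962881, 6 of 20 such genes were listed. ZNF616, ZNF836, ZNF83 and ZNF611 fell by 0.51 to 0.67 on the log2 scale. The next listed genes, ZNF468 and ZNF816-ZNF321P, rose by 0.50 and 0.91. Over all chromosomes 15 pairs of neighbouring listed zinc finger genes had starts within 100 kb, and 12 of the 15 went the same way (80%). Among other listed genes 364 of 591 such pairs did (61.6%). Some pairs share a gene, ZNF394 and ZNF789 overlap each other, and ZNF439 and ZNF69 have coding sequences 91.2% identical. The part of this in the shared direction was not tested.

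**Figure D5:**
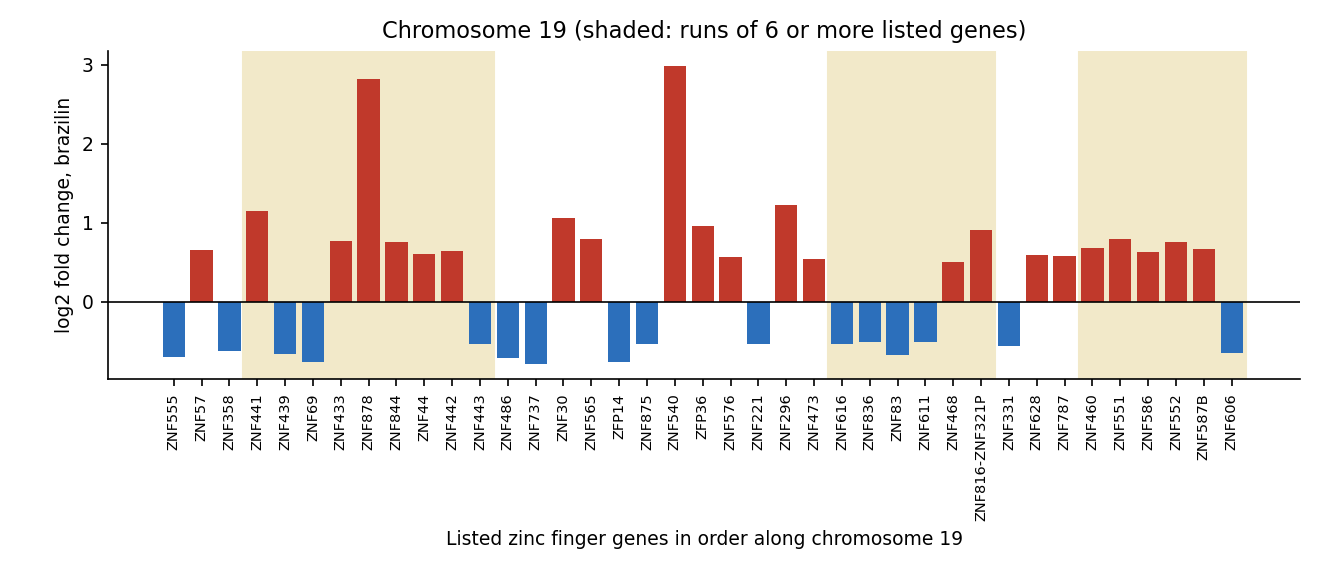
log2 fold change with brazilin (y axis) of the 39 listed zinc finger genes in their order along chromosome 19 (x axis), red where higher and blue where lower, with the 3 neighbourhoods of 6 or more listed genes shaded. Runs of the same colour appear within the shaded parts, such as the 5 rises from ZNF433 to ZNF442.

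Start regions are shown for 3 pairs of genes with like promoters, each pair from 1 neighbourhood, because both pairs shown from the largest neighbourhood went the same way and the pair from chr19:52113091-52962881 did not. ZNF439 and ZNF69 are next to each other among the listed genes, and the other pairs have listed genes between them. Each is the RefSeq window of 300 bases from 250 before to 50 after the gene's start, 5′ to 3′ on the gene's strand (GRCh38.p14), in lower case with GC boxes (GGGCGG on either strand) in capitals. ZNF439 (chr19:11848476-11848775, plus strand) and ZNF69 (chr19:11887532-11887831, plus strand) both fell, ZNF441 (chr19:11766750-11767049, plus strand) and ZNF44 (chr19:12294834-12295133, minus strand) both rose, and ZNF83 (chr19:52690447-52690746, minus strand) fell while ZNF468 (chr19:52857570-52857869, minus strand) rose.
ZNF439: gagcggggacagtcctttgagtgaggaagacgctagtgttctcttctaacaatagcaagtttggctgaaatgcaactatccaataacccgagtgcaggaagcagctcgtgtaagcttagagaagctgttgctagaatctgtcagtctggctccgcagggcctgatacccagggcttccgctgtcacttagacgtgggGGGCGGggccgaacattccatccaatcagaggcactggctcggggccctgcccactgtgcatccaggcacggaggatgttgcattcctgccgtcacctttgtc
ZNF69: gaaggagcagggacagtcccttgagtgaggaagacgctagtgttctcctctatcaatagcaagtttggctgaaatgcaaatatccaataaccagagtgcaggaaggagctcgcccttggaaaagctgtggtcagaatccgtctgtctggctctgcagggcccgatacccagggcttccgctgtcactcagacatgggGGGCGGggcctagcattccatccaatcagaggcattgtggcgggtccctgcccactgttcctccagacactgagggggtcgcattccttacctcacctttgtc
ZNF441: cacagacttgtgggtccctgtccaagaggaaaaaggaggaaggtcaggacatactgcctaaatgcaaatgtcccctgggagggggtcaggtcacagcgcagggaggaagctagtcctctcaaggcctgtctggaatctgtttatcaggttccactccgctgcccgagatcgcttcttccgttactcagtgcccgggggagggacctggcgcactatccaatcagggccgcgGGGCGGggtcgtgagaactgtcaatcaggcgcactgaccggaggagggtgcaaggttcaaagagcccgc
ZNF44: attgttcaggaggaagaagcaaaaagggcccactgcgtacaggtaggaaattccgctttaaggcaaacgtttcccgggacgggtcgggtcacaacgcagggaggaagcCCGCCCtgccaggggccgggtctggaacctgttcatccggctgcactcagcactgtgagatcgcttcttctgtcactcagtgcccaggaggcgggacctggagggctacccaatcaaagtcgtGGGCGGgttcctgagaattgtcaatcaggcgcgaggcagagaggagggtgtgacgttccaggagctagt
ZNF83: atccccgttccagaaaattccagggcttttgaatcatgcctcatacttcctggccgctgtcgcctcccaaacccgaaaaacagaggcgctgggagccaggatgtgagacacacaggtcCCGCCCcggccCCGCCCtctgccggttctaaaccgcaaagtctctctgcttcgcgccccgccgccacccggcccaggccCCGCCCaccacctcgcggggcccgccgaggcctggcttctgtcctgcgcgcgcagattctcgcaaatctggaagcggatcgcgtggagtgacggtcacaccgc
ZNF468: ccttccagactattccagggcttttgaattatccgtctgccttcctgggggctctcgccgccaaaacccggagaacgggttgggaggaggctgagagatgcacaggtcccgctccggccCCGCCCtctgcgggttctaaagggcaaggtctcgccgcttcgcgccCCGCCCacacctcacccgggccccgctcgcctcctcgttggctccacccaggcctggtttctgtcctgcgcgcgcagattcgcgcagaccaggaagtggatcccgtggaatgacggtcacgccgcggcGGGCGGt

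Aligned over their whole length, the windows of ZNF439 and ZNF69 were 85.2% identical and those of ZNF441 and ZNF44 70.4%, where the median over the 36 pairs of the 9 genes was 54.4% and 18 of the 36 went the same way. All 7 pairs of this neighbourhood at 60% or more went the same way, and the next pairs below, ZNF844 with ZNF69 (59.4%) and with ZNF439 (59.3%), did not. Of the other pairs of listed zinc finger genes at 60% or more, 8 of 12 went the same way, among them ZNF737 and ZNF486 (83.6%, both lower), while ZNF83 and ZNF468 (76.8%) went opposite ways. Over all 19 such pairs 15 went the same way (78.9%), against 49.3% of all 2278 pairs. The limit of 60% was chosen after the values were seen and falls just below the last of those 7 pairs. That all 7 went the same way thus follows from this choice, and the 19 pairs include them. The pairs share genes, and such pairs can also have like coding sequences, 91.2% identical for ZNF439 and ZNF69. How the authors' counting treated reads that match more than 1 such gene was not given in the sources used here, and its part in the shared direction was not tested.

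Promoter windows were found for 68 of the 81 genes. The GC box stood in 45 of the 68 (66.2%), in 67.7% of other listed genes, in 63.0% of all 554 zinc finger windows and in 44.6% of all 27305 RefSeq windows, and in 71.4% of higher against 60.6% of lower zinc finger genes. The ETS core CCGGAAG was found in 30.9%, against 13.1% of other listed genes and 38.3% of all 554 zinc finger windows, at 31.4% in higher and 30.3% in lower genes. The AP-1 letters TGANTCA stood in 7 windows (10.3%, against 5.87% of other listed genes and 5.23% of all zinc finger windows), and the EGR1 letters GCGGGGGCG also in 7 (10.3%, against 8.71% and 4.69%). The antioxidant response core TGACNNNGC stood in 4 windows (5.88%, against 14.1% and 14.4%). The letters TGACGTCA of the cyclic AMP response element stood in 1 window (1.47%, against 2.62% and 3.97%). Both strands were searched, and matches to different motifs can share bases.

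Other families of C2H2 factors, with other symbols (the ZBTB, KLF, GLI, PRDM, EGR, SNAI and HIC genes and others, 160 in all), had 33 genes in the brazilin table, of which 21 rose and 12 fell (63.6% higher, median log2 0.57). Over all genes 14.3% of protein-coding genes were listed, and 47.6% of listed genes were higher. The largest rises were those of EGR2, from a low 0.08 to 2.1 FPKM (log2 4.65), and EGR1, from 12.97 to 125.32 FPKM (log2 3.18). SNAI1, a repressor of epithelial genes, came next, from 1.37 to 8.6 FPKM (log2 2.56). Other examples, likewise named after their values were seen, are HIC1, a repressor often silenced in tumours, which rose from 0.32 to 1.62 FPKM (log2 2.04), KLF6, from 61.5 to 95.4 FPKM (log2 0.54), and GLI3, a transducer of Hedgehog signals, which fell from 3.97 to 2.60 FPKM (log2 -0.70). No difference between these families and the zinc finger genes was tested.

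With acetylated brazilin 3 zinc finger genes were listed, 2 of them higher, where 62.2% of all listed genes were higher and 0.932% of protein-coding genes were listed. ZNF114, a KRAB gene of chromosome 19, fell from 5.53 to 2.96 FPKM (log2 -0.92, interval -1.27 to -0.56, q = 3.65e-07). ZNF213, with a SCAN match, rose from 2.49 to 3.70 FPKM (log2 0.59, interval 0.23 to 0.96, q = 0.00137), and ZNF414 from 5.48 to 7.41 FPKM (log2 0.54, interval 0.09 to 1.00, q = 0.0199). None of the 3 was in the brazilin table and none of the 81 in the acetylated one, although the tables share 84 genes, so no zinc finger gene could be compared between the compounds at their common dose and time. With methylated brazilin, which differs from brazilin by methyl groups as the label says, 0 zinc finger genes were listed, where 0.0548% of protein-coding genes were. Being listed with 1 compound and not with another does not show that the compounds differ, since values of unlisted genes are not in these tables.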

How the data were processed

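Per the file headers, the authors deposited, per compound and called gene, mean FPKM values, the log2 fold change (treated over untreated, judged by its sign against the means) and its q-value. Tools in the submitters' processing notes are DESeq2, RSEM, Bowtie, StringTie and HISAT, without versions or roles, and mm10 stands there beside GRCh38 and hg38. No count or value per sample was analysed, so no model was fitted and no depth can be given. The planned difference between compounds had no shared gene to run on.

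Members were matched on symbol, and gene IDs to the RefSeq table of GRCh38.p14 (81 of 81). Transcript lengths, GC content and coding sequences came from GENCODE release 29, taking the transcript with the longest coding sequence, for 81 of 81 members and 2866 of 2885 listed genes. C2H2, KRAB and SCAN matches were searched in translated coding sequences, KRAB only near the start of the protein. The finger pattern was checked only on an artificial sequence written to match it, which says nothing on diverged fingers. Near-identical copies (98% identity over 80% of the length) were searched with BLAST+ 2.17.0. Promoter windows were aligned end to end, gaps counted in the length. Named by rule were the 8 largest rises and falls among genes reaching 1 FPKM, the 5 with the highest untreated level, the 5 with the smallest q-value, ZFP36, listed co-repressors and all 3 acetylated brazilin genes; other genes are given as examples of a class or cluster. Members and lists were chosen with earlier results of these data known. Calculations used Python 3.11.15, pandas 2.3.3 and scipy 1.17.1.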

Additional observations from a re-analysis of the deposited data

How the results depend on the processing

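The split of 42 higher and 39 lower zinc finger genes with brazilin kept within 1.5 times of each count under q-value limits of 0.01 and 0.001 and a minimum of 1 FPKM. It was also 42 and 39 by the ratio of FPKM means with a pseudocount of 0.1 or 1. The same held after centring on the median offset of -0.09 between the authors' fold change and that ratio. A pseudocount cannot change the sign of a ratio, and so small a shift cannot change the sign of values at least 0.5 from no change. The choice of pseudocount and the centring therefore say nothing on how stable the split is. At a log2 change of at least 1 the split was 9 and 2 (81.8% higher, against 65.6% of other listed genes). Without genes that overlap another gene in the RefSeq table, a setting added after the data were seen, it was 19 and 15. Without genes lacking a C2H2 finger the median log2 fold change turned from 0.50 to -0.50, because it sits at the edge of the gap left by the authors' limit. The share of other listed genes that rose was 47.5%. It was 44.8% at q under 0.01, 41.9% at q under 0.001 and 43.3% with a minimum of 1 FPKM. The share of zinc finger genes was then 52.1%, 51.6% and 50.7%, so the gap to other listed genes depends on these limits. The share of other listed genes became 44.7% when weighted to the length classes of the zinc finger genes, 38.9% for GC classes and 39.1% for both. The last 2 weightings were added after the data were seen. With acetylated brazilin 1 gene was higher at q under 0.01 and 0 at q under 0.001, and 0 were lower without ZNF114, which overlaps ZNF114-AS1. No paired analysis was possible because the tables hold group means only, and leaving out a replicate or allowing for shared controls was not run for the same reason or for lack of shared genes. At an unknown depth, levels under 1 FPKM cannot be turned into reads.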
